A study of Mus musculus with 4 samples.

Results

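The noncoding transcripts described here are spliced RNAs whose introns hold small nucleolar RNAs (snoRNAs) and whose exons encode no known protein. The set was a list of 10 genes given by name, Gas5, Snhg1, Snhg3, Snhg4, Snhg5, Snhg6, Snhg8, Snhg12, Snhg15 and Snhg17, out of 16537 genes in the expression table. Of the 10 genes, 8 were listed under these symbols. The other 2 were listed under older symbols, Snhg15 as Gm11974 and Snhg17 as 9430008C03Rik, and were matched through RefSeq synonyms and position. The list names genes and sets no threshold on a measured value.

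RNA-seq was carried out on YUMM1.7, a genetically engineered mouse melanoma cell line, labelled wild type here. The cells grew overnight on fibronectin-coated porous inserts, extending processes through the membrane. The cell body fraction is what a scraper removed from the upper face, and the protrusion fraction is the lysate of the wiped membrane with the processes in it. Each fraction has 2 libraries, labelled biological replicates 1 and 2, and each library was made from 6 inserts, so that a cell body and a protrusion library with the same number come from the same inserts. No treatment was applied, and both fractions come from the same cell line. Libraries were made from rRNA-depleted total RNA with a strand-specific kit and hold 25854946 to 30994908 reads assigned to genes. Of 9 melanocyte markers, 4 were listed and only Mitf reached a mean of 1 TPM. TPM is the read count per transcript length scaled to the same total in each library. Of 8 markers of mesenchymal or neural crest-like melanoma, 7 reached a mean of 1 TPM, and the 8 summed to 12479 to 26173 TPM. Of 6 fibroblast markers, 5 reached a mean of 1 TPM, and the 6 summed to 579 to 946 TPM. Liver markers, which mark no cell in this culture, summed to 63 TPM in protrusions replicate 1 and to 1.1 to 3.29 TPM in the other 3 libraries.

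Small nucleolar RNAs guide the chemical modification and processing of ribosomal RNA in the nucleolus: box C/D snoRNAs direct ribose methylation, and box H/ACA snoRNAs direct pseudouridylation. In mammals most of them are cut out of the introns of longer transcripts, and the spliced host RNA is exported to the cytoplasm. Noncoding hosts can contain short open reading frames, be loaded onto ribosomes and then be broken down by nonsense-mediated decay. Many of them start, like ribosomal protein mRNAs, with a run of pyrimidines that couples their translation to growth signals.

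Start sites are shown first because that pyrimidine run is the sequence feature the hosts are known to share with ribosomal protein mRNAs. RefSeq start-site windows on GRCm38.p6 were available for 8 of the 10 genes; Snhg4 and Snhg6 had no entry. Each line holds 30 bases of the sense strand, 10 before the annotated start and 20 from it on, and capitals mark a C followed by at least 4 bases that are each C or T and beginning within 5 bases of the start.
Gas5: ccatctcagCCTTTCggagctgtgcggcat
Snhg12: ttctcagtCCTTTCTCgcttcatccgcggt
Snhg3: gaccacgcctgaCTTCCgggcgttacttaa
Snhg8: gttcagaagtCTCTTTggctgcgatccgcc
Snhg1: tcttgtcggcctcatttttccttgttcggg
Snhg5: gcggtgaaccgggctcgttcttttacgacg
Snhg15: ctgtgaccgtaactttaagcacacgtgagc
Snhg17: agcgcccatcgtgaagaccacagtttcctg
The run was found at 4 of the 10 start sites annotated for these 8 genes, those shown for Gas5, Snhg12, Snhg3 and Snhg8. Gas5 and Snhg17 each have a further start site, not shown, without the run. By the same search, on the sense strand only, 17.1% of 32851 start sites of all genes held it, and 43.1% of 72 start sites of cytosolic ribosomal protein genes did. Among the 4 genes with the run at the site shown the log2 change in protrusions lay between -0.93 for Gas5 and -0.50 for Snhg3. Among the 4 without it the change lay between -0.95 for Snhg5 and -0.31 for Snhg15. These ranges overlapped. Because the search found the run at only 43.1% of ribosomal protein start sites, a host without a hit may still start with pyrimidines. The overlap therefore cannot decide whether the run goes with the change.

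Intronic snoRNAs with their own row in the table are shown next for hosts whose snoRNA results are described further on. The sequences are those of the GENCODE M21 annotation on GRCm38. The rows counted for Snord47 and Snord87 are shorter, at 65 and 74 bp against 77 and 87 bp. Capitals mark box C and box D in Snord47 and Snord87, box D in Snord22 and the terminal ACA in Snora24.
Snord47 (in Gas5, chr1:161038082-161038158, plus strand): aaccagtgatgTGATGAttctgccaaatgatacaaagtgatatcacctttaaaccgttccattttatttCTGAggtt
Snord22 (in Snhg1, chr19:8725866-8725991, plus strand): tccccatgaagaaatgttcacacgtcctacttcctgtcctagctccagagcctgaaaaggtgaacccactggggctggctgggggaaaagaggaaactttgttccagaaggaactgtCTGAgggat
Snord87 (in Snhg6, chr1:9942463-9942549, minus strand): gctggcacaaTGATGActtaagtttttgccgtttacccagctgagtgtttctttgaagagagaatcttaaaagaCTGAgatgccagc
Snora24 (in Snhg8, chr3:123507937-123508066, minus strand): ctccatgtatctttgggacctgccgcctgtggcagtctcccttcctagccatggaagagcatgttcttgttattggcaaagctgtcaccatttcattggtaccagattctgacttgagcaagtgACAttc
Snord47 and Snord87 carry the TGATGA of box C near the start and the CTGA of box D near the end. In a mature box C/D snoRNA the ends come together and the boxes form the fold that the core proteins bind.

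In protrusions 5 of the 10 hosts were lower than in cell bodies and none was higher. Gas5, Snhg1, Snhg4, Snhg5 and Snhg8 fell to between 51.8% and 68.2% of their cell body level. Snhg3, Snhg12, Snhg15 and Snhg17 had log2 changes of -0.61 to -0.31 and did not pass the test. Snhg6 stood at 108% of its cell body level and did not pass either. Across all 11400 genes tested, 4.25% were called lower and 2.99% higher, and the median log2 change was -0.07, against -0.58 for the 10 hosts. In 9 of the 10, both protrusion values lay below both cell body values, as they did for 37% of all genes tested. The test was limma's two-sided moderated test on log2(TPM + 0.5), adjusted over all 11400 genes by the Benjamini-Hochberg method, with a threshold of 0.05. Every fold change below is on this scale. The number of hosts at an unadjusted p under 0.05 was 9 lower and 0 higher, beside 3566 of all 11400 genes tested in either direction. With the replicate number as a block, 7 of the 10 were lower, Snhg3 and Snhg12 being added, where 13.3% of all genes were lower and 8.08% higher. None of the 10 was higher with the block.

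TPM is a share of the RNA in each fraction, so a lower value cannot tell less of an RNA in protrusions from more of the others, nor fewer cells contributing from less RNA per cell. The calls rest on every library: with 3 libraries kept, 0 of the 10 hosts passed once either cell body library or protrusions replicate 2 was left out, and 2 passed without protrusions replicate 1. The direction of change was kept for all 10 in these 4 fits.

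**Figure D1:**
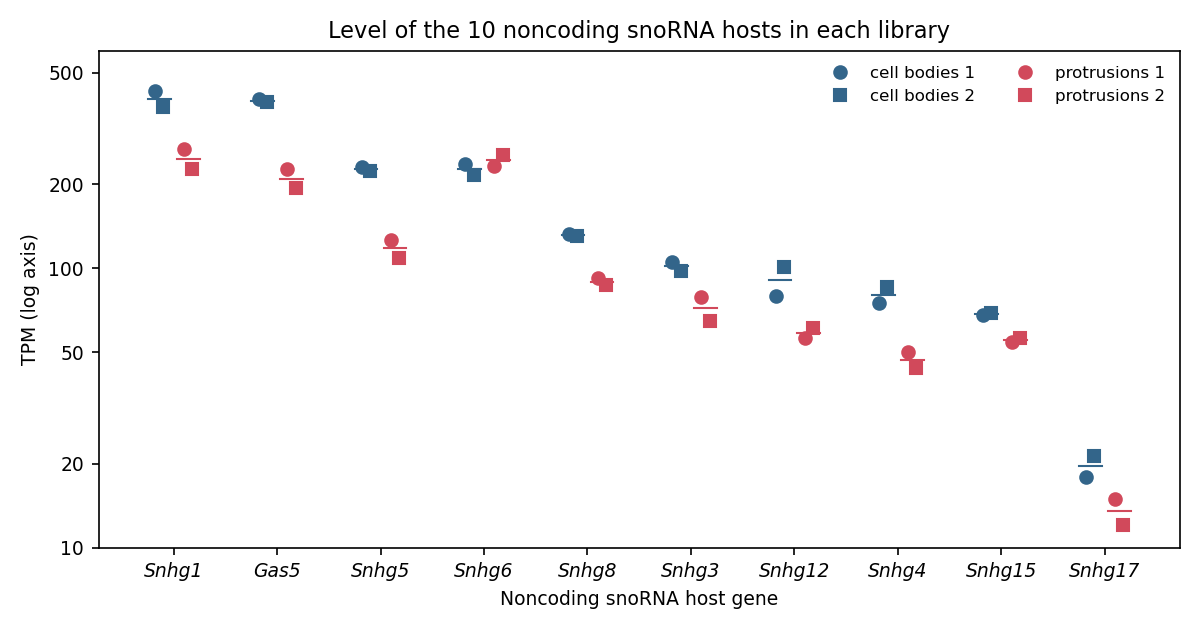
TPM (log axis) of each noncoding snoRNA host in the 4 libraries; blue points are cell bodies, red points protrusions, circles replicate 1 and squares replicate 2, and short lines the mean of 2 libraries. For every host except Snhg6 the red points lie below the blue ones, and Snhg6, at 215 to 254 TPM in all 4 libraries, passes Gas5 and Snhg5 in protrusions.

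In cell bodies the levels per length spanned a 20.5-fold range. Snhg1 (402 ± 37.9 TPM, SD, n = 2) and Gas5 (398 ± 5.68) were the highest and their values overlapped. Snhg5 (227 ± 5.13) and Snhg6 (226 ± 15.8) followed and overlapped as well. Snhg8 (132 ± 2.25), Snhg3 (102 ± 5.01), Snhg12 (90.6 ± 15.0), Snhg4 (80.4 ± 7.41) and Snhg15 (68.7 ± 0.908) came next, and within this run Snhg12 overlapped with Snhg3 and with Snhg4. Snhg17 was the lowest (19.6 ± 2.41). In protrusions the order changed at the top: Snhg1 (247 ± 28.3) and Snhg6 (243 ± 15.7) overlapped, and Gas5 (209 ± 23.2) lay below both. Together the 10 hosts made up 0.178% and 0.171% of the TPM of the cell body libraries and 0.12% and 0.111% of the protrusion libraries. The share of Snhg6 in that sum was 13.3% and 12.5% in cell bodies and 19.4% and 22.9% in protrusions.

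The hosts of box C/D snoRNAs held the largest and the smallest changes. Gas5 (chr1:161035166-161038537, plus strand, mm10) was found as a transcript that accumulates in growth-arrested cells, and 8 snoRNA genes lie within it. It measured 402 and 394 TPM in the cell body libraries and 226 and 193 TPM in the protrusion libraries. By the fit, protrusions stood at 52.5% of the cell body level, and the groups did not overlap. Its log2 fold change was -0.93 ± 0.12 (SE; 95% interval -1.23 to -0.63; limma adjusted p = 0.0342). With 7776 to 15824 reads per library, Gas5 was the most deeply counted of the 10 genes.

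Snhg5 (chr9:88521053-88522897, minus strand), the host of 2 box C/D snoRNAs, measured 230.3 and 223 TPM in cell bodies and 126 and 109 TPM in protrusions. Its log2 fold change was -0.95 ± 0.12 (95% interval -1.24 to -0.66; limma adjusted p = 0.0342), the largest of the 10. The change of Snhg5 was lower than that of all but 2.95% of the genes tested, and for Gas5 this share was 3.19%. Without protrusions replicate 1 these were the 2 hosts that still passed, Gas5 at -1.04 (limma adjusted p = 0.0479) and Snhg5 at -1.05 (limma adjusted p = 0.0489).

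Snhg1 (chr19:8723487-8726326, plus strand), also known as UHG for its snoRNA Snord22, holds 8 snoRNA genes. It measured 429 and 376 TPM in cell bodies and 267 and 227 TPM in protrusions. The spread between its replicates was wider than for Gas5, but the groups did not overlap. Its log2 fold change was -0.70 ± 0.13 (95% interval -1.03 to -0.37; limma adjusted p = 0.0437).

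Snhg6 (chr1:9942025-9944118, minus strand), the host of Snord87, differed from the other 9 genes in that its groups overlapped. It measured 237 and 215 TPM in cell bodies and 232 and 254 TPM in protrusions. In replicate 1 the protrusion value was lower by 0.03 on the log2 scale, and in replicate 2 it was higher by 0.24. The fitted log2 fold change was 0.11 ± 0.12 (95% interval -0.18 to 0.39; limma adjusted p = 0.571). This interval leaves out falls as large as those fitted for the other 9 hosts, which began at -0.31. It overlaps with the intervals of Snhg15 (-0.58 to -0.03), Snhg17 (-0.95 to -0.09) and Snhg3 (-0.84 to -0.16). Snhg6 was tested directly against Gas5 only. Each library held 1134 to 1762 Snhg6 reads.

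Among the hosts of box H/ACA snoRNAs, Snhg4 and Snhg8 were lower. Snhg4 (chr18:35553410-35558316, plus strand), the host of Snora74a, which takes part in the processing of ribosomal RNA precursors, measured 75.2 and 85.6 TPM in cell bodies and 50.1 and 44.1 TPM in protrusions. Its log2 fold change was -0.76 ± 0.13 (95% interval -1.09 to -0.44; limma adjusted p = 0.0397), the largest in this class. Snhg8 (chr3:123507552-123508336, minus strand), the host of Snora24, measured 133 and 130 TPM in cell bodies and 92.2 and 86.9 TPM in protrusions. Both groups were tight and well apart, and its log2 fold change was -0.55 ± 0.11 (95% interval -0.82 to -0.29; limma adjusted p = 0.0445).

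Snhg3 (chr4:132351933-132353686, minus strand), the host of the rRNA-processing snoRNAs Snora73a and Snora73b, measured 105 and 98.1 TPM in cell bodies and 79 and 65 TPM in protrusions. Both protrusion values lay below both cell body values. The log2 fold change of -0.50 ± 0.14 did not pass without the block (limma adjusted p = 0.0773) and passed with it (limma adjusted p = 0.0188).

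Snhg12 (chr4:132308678-132311024, plus strand) is the mixed host of the set, with 3 box H/ACA snoRNAs and the box C/D snoRNA Snord99. It measured 79.9 and 101 TPM in cell bodies and 56.4 and 60.9 TPM in protrusions. Cell bodies replicate 2 and protrusions replicate 2 were the higher library of each pair, unlike for Gas5, Snhg1 and Snhg3, and the groups stayed apart. The log2 fold change of -0.61 ± 0.15 did not pass without the block (limma adjusted p = 0.0633) and passed with it (limma adjusted p = 0.00868).

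Snhg15 (chr11:6525591-6528760, minus strand) measured 68 and 69.3 TPM in cell bodies and 54.3 and 56.4 TPM in protrusions. The replicates were nearly equal and the groups did not overlap, with protrusions at 80.8% of the cell body level. Its log2 fold change of -0.31 ± 0.11 did not pass without the block (limma adjusted p = 0.129) or with it (limma adjusted p = 0.114). Snhg17 (chr2:158353700-158361522, minus strand), the lowest of the 10 genes per length, measured 17.9 and 21.3 TPM in cell bodies and 15 and 12.1 TPM in protrusions. The drop was 0.24 on the log2 scale in replicate 1 and 0.79 in replicate 2, the most uneven of the set, and the fitted log2 change of -0.52 ± 0.17 did not pass without the block (limma adjusted p = 0.114) or with it (limma adjusted p = 0.069).

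Of the 10 hosts, 9 were lower in protrusions within both replicate numbers, and in 8 of these 9 the drop was larger in replicate 2. Liver markers, listed above, were high in protrusions replicate 1. Without that library the log2 change was -1.04 for Gas5, -0.82 for Snhg1, -0.85 for Snhg4, -1.05 for Snhg5 and -0.59 for Snhg8. Protrusions then rested on 1 library, and the part of liver RNA in the changes was not tested. Base composition moved with the comparison. Removing from each library its smooth trend on transcript GC content left 2 of the 9 hosts with a known GC content past the threshold, Gas5 at -0.69 (limma adjusted p = 0.0413) and Snhg5 at -0.77 (limma adjusted p = 0.039), while Snhg1 was -0.42 (limma adjusted p = 0.116) and Snhg8 -0.39 (limma adjusted p = 0.0898). GC content was 42.33% for Gas5, 45.13% for Snhg5, 40.51% for Snhg1, 41.54% for Snhg6, 52.34% for Snhg17 and 53.93% for Snhg15. The part of GC content in these changes was not otherwise tested.

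**Figure D2:**
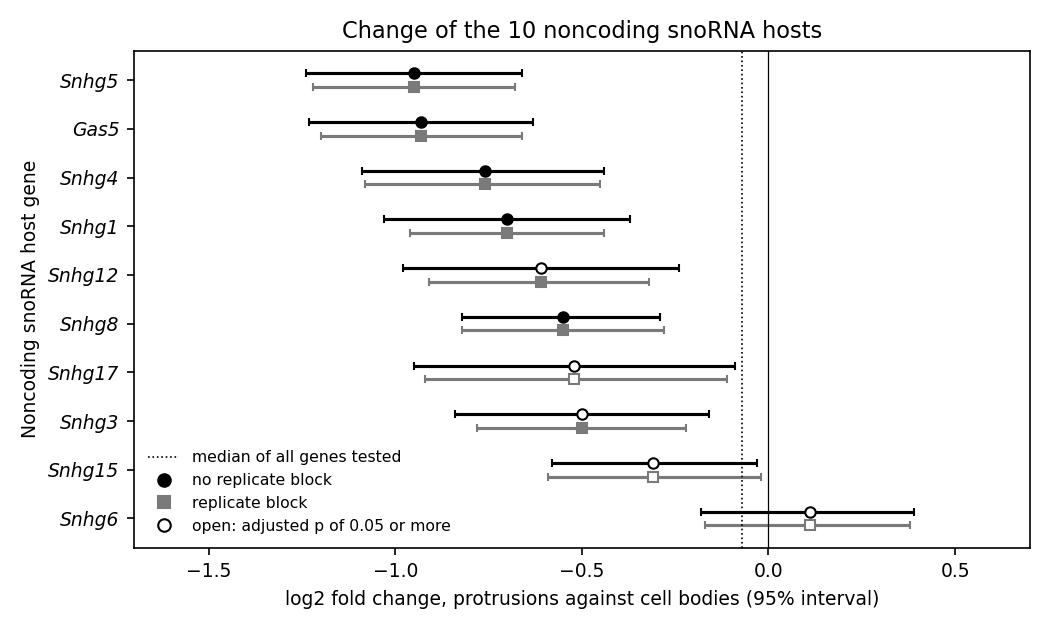
Log2 fold change of each noncoding snoRNA host in protrusions against cell bodies, with its 95% interval from limma without (circles) and with (squares) the replicate number as a block; filled symbols have an adjusted p under 0.05 and the dotted line is the median of all genes tested, -0.07. Filled circles mark Snhg5, Gas5, Snhg4, Snhg1 and Snhg8, filled squares add Snhg12 and Snhg3, and Snhg6 is the host whose interval includes 0.

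To see whether the hosts moved alike, each was set against Gas5 within the same library and the ratio was tested. Snhg5 changed by -0.02 relative to Gas5 (95% interval -0.35 to 0.32; limma adjusted p = 0.912), so a difference of more than 0.35 on the log2 scale between them lies outside the interval. Snhg4 (0.17; 95% interval -0.20 to 0.53) and Snhg1 (0.23; 95% interval -0.13 to 0.59) did not differ from Gas5 beyond their intervals. Snhg6 rose relative to Gas5 by 1.04 (95% interval 0.62 to 1.45; limma adjusted p = 0.0019). In cell bodies Gas5 was 1.69 and 1.83 times Snhg6, and in protrusions 0.972 and 0.758 times. Snhg15 (0.62; limma adjusted p = 0.00995), Snhg3 (0.43; limma adjusted p = 0.0275) and Snhg8 (0.38; limma adjusted p = 0.0473) also rose relative to Gas5. That made 4 of 9 hosts, where 77.1% of all 11399 genes rose relative to Gas5, which itself was among the genes that fell most. With the block 6 of 9 hosts passed, Snhg12 and Snhg17 being added, beside 86.2% of all genes. With GC correction Snhg15 was 0.33 (limma adjusted p = 0.0602) and Snhg8 0.30 (limma adjusted p = 0.07) relative to Gas5, and neither passed, while Snhg6 and Snhg3 did. The count of 4 was 1 without cell bodies replicate 1 and 1 without protrusions replicate 2.

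What was counted as a host differed from gene to gene. The length behind each TPM value could be worked out from the table, with the scale set on 47 snoRNA genes, of which 97.9% came within 1% of their own span. It was 2554 bp for Gas5, or 75.7% of the 3372 bp from its first to its last base, whereas its longest spliced GENCODE transcript has 665 bp. For Snhg8 it was 785 bp, the whole span, against 528 bp for the longest spliced transcript, so that Snora24 lies inside the counted part. Reads counted for Gas5 and Snhg8 can therefore come from sequence that is intronic in their spliced forms. For Snhg5 the counted length was 1010 bp, or 54.7% of its span, against 1004 bp for the longest and 440 bp for the shortest spliced transcript. For Snhg17 it was 3172 bp, or 40.5%, against 3144 bp and 342 bp. Reads of Snhg5 and Snhg17 can come from sequence that is intronic in their shorter forms. For Snhg1 the counted length was 476 bp of 2840, for Snhg3 437 bp of 1754, for Snhg6 407 bp of 2094, for Snhg12 606 bp of 2347 and for Snhg15 592 bp of 3170, between 16.8% and 25.8% of the span. Among these 5 largely exonic counts Snhg1 was lower, at -0.70, Snhg3, Snhg12 and Snhg15 had values of -0.61 to -0.31, and Snhg6 was at 0.11. Snhg4, lower at -0.76, had 1151 bp or 23.5% of its span counted, but no spliced GENCODE transcript to set beside it. The part of intronic reads in the changes of Gas5, Snhg5, Snhg8 and Snhg17 was not tested. No gene of the table overlaps any of the 10 hosts on the opposite strand.

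The introns of the 10 hosts hold 30 snoRNA genes in RefSeq, and 9 of these had rows of their own, in 6 hosts. Of the 9, 7 were lower in protrusions, none was higher and the median log2 change was -1.22. Those lower were Snord47 in Gas5, Snora74a in Snhg4, Snord22 in Snhg1, Snora24 in Snhg8, and Snora44, Snora61 and Snord99 in Snhg12. Snord87 and Snora16a had values of -0.85 and -0.72 that did not pass. In all 9 both protrusion values lay below both cell body values, as in 82 of the 111 snoRNA and scaRNA (small Cajal body RNA) genes and in 37% of all genes tested. Of all 111 of these genes, 44 were lower and 0 higher, and the median was -0.85.

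Snord47, which guides the methylation of large-subunit rRNA, measured 332 and 357 TPM in cell bodies and 122 and 85.8 TPM in protrusions. The log2 fold change was -1.75 ± 0.18 (limma adjusted p = 0.0335), the largest among the 9. Its host Gas5 changed by -0.93. Snord22, required for the processing of small-subunit rRNA, measured 364 and 361 TPM in cell bodies and 146 and 125 TPM in protrusions, a log2 fold change of -1.42 ± 0.12 (limma adjusted p = 0.0273) against -0.70 for its host Snhg1. Snora24, a guide of pseudouridylation, measured 107 and 108 TPM in cell bodies and 53.6 and 56 TPM in protrusions, a log2 fold change of -0.97 ± 0.11 (limma adjusted p = 0.0342) against -0.55 for Snhg8.

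Snora74a was the most abundant of the 9 in cell bodies, at 585 and 561 TPM, and stood at 183 and 214 TPM in protrusions. Its log2 fold change was -1.53 ± 0.12 (limma adjusted p = 0.0273), and it was counted with 489 to 1787 reads per library. Snhg12 offers 4 snoRNAs of a single host. Snora61 measured 215 and 245 TPM in cell bodies and 90.8 and 106 TPM in protrusions, and changed by -1.22 ± 0.13 (limma adjusted p = 0.0336). The table row of Snora61 spans 62 bp, against 130 bp in GENCODE. The rows of Snora44 (117 against 129 bp), Snord99 (56 against 74 bp), Snord47 (65 against 77 bp) and Snord87 (74 against 87 bp) are shorter too. Snora44 (-1.31 ± 0.23; limma adjusted p = 0.04) and Snord99 (-1.02 ± 0.19; limma adjusted p = 0.0422) were lower too, and Snora16a (-0.72 ± 0.39; limma adjusted p = 0.263) varied most between libraries, at 32.7 TPM in protrusions replicate 1 and 13.4 TPM in protrusions replicate 2. Snora44 and Snora16a rest on 26 to 81 reads per library. On the whole reads recovered from the table, limma's voom gave the same calls for 8 of the 9, and Snord99 no longer passed (adjusted p = 0.0676).

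Set against its own host, the snoRNA was lower in protrusions in all 9 pairs by the fitted ratio, with a median log2 change of the ratio of -0.69, but no pair passed the test (limma, adjusted over 104 pairs of a snoRNA and its host), and 3 had an unadjusted p under 0.05. The 9 pairs are not independent, since 4 of them share the host Snhg12. The counted part of Snhg8 takes in Snora24, so that ratio sets a part against the whole. Among all 104 pairs the ratio was lower in 89, and 45 had an unadjusted p under 0.05. Of the 104, 20.2% were called lower, and the median ratio change was -0.70. The 17 pairs with other noncoding hosts had 1 called lower and a median of -0.31. The 78 pairs with protein-coding hosts had 20 called lower and a median of -0.83. The largest fall of the 9 pairs was that of Snord87 in Snhg6, whose ratio to the host was 0.185 and 0.209 in cell bodies and 0.129 and 0.078 in protrusions. Snord87 was at 43.8 and 44.8 TPM in cell bodies and 30 and 19.8 TPM in protrusions, on 25 to 50 reads per library, while Snhg6 kept its level. The log2 change of the ratio was -0.95 ± 0.37 (95% interval -1.75 to -0.16; limma adjusted p = 0.0752). It passed with the replicate block (limma adjusted p = 0.0339), where 26% of all pairs were lower, and with a minimum mean of 5 TPM (limma adjusted p = 0.0364). It was -1.31 without protrusions replicate 1 (limma adjusted p = 0.00194) and -0.59 without protrusions replicate 2 (limma adjusted p = 0.242), and it did not pass without cell bodies replicate 1 (-1.04; limma adjusted p = 0.279) or cell bodies replicate 2 (-0.86; limma adjusted p = 0.342).

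Among the other pairs, the ratio of Snord47 to Gas5 went from 0.827 and 0.907 in cell bodies to 0.541 and 0.445 in protrusions, a log2 change of -0.82 ± 0.34 (limma adjusted p = 0.0901). That of Snord22 to Snhg1 went from 0.848 and 0.96 to 0.545 and 0.549, a log2 change of -0.72 ± 0.34 (limma adjusted p = 0.114). Snora16a to Snhg12 was near no change at -0.10 and turned to 0.58 without protrusions replicate 2. The ratio of Snora44 to Snhg12 was -0.69 (limma adjusted p = 0.176), and -1.06 without protrusions replicate 1 (limma adjusted p = 0.0186). It was -0.33 without protrusions replicate 2 (limma adjusted p = 0.599) and -0.40 without cell bodies replicate 1 (limma adjusted p = 0.596). Reads within a snoRNA gene can come from the mature snoRNA or from host RNA that has not been spliced, and the 2 cannot be told apart in these counts. Across the 9 pairs the changes of host and snoRNA had a Pearson correlation of 0.66, as a description only, since 4 pairs share the host Snhg12 and all share the libraries. It was 0.26 across the 17 pairs with other noncoding hosts and -0.11 across the 78 pairs with a protein-coding host.

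**Figure D3:**
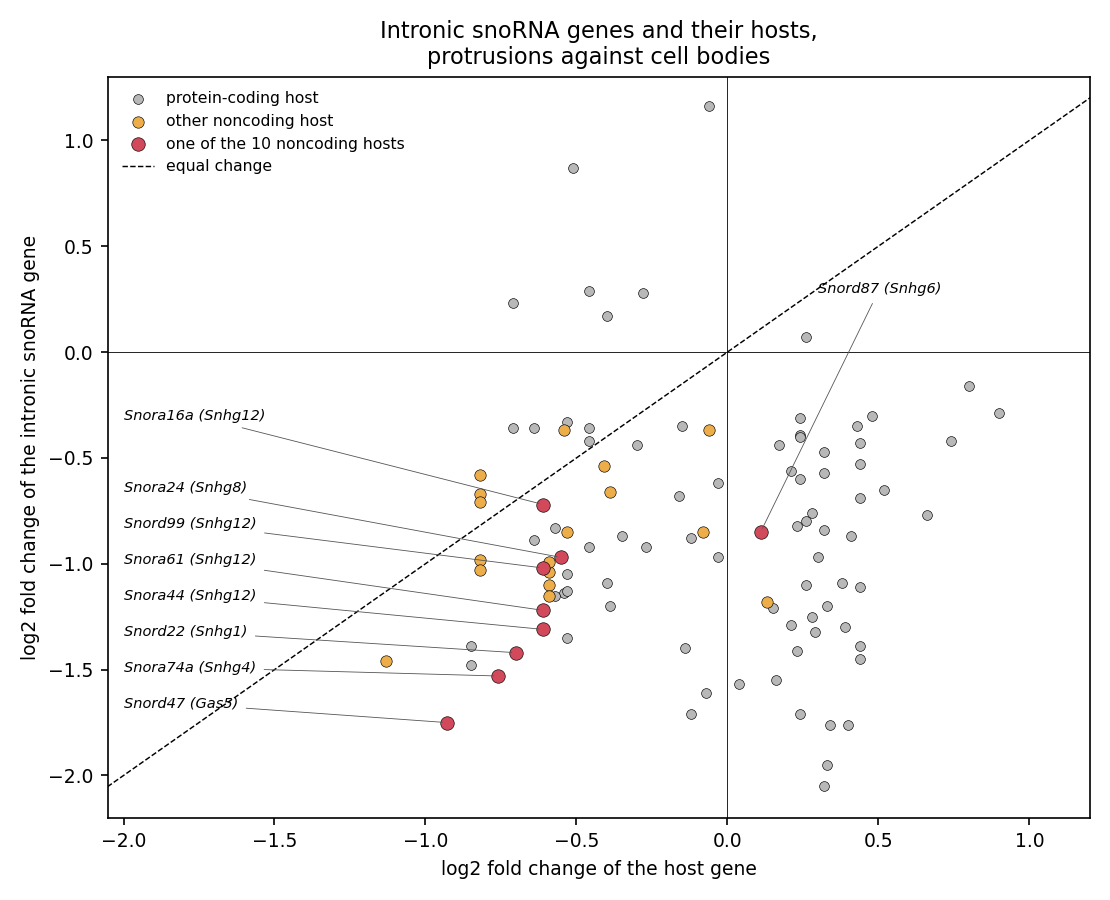
Log2 fold change of each intronic snoRNA gene (vertical) against that of its host gene (horizontal) in protrusions against cell bodies, for 104 pairs; red points are the 9 pairs of the noncoding hosts described here, orange points pairs with other noncoding hosts, grey points pairs with protein-coding hosts, and the dashed line marks equal change. All 9 red points lie below the line, as do 89 of all 104 points, and Snord87 in Snhg6 is the red point to the right of 0, where the host did not fall.

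Other spliced noncoding hosts ran from -1.13 to 0.13, against -0.95 to 0.11 for the 10 hosts. Of 17 on the list 13 were in the table and 11 were tested. Of these, 4 were lower, none was higher and the median log2 change was -0.59, against -0.58 for the 10 hosts. Dancr (-1.13 ± 0.22; limma adjusted p = 0.0445), Snhg7 (-0.82 ± 0.17, 0.0486), Snhg16 (-0.82 ± 0.15, 0.0427) and 2410006H16Rik (-0.59 ± 0.10, 0.04) were the 4 that fell. Snhg20 (-0.78) and Zfas1 (-0.59) passed only with the block (limma adjusted p = 0.00849 and 0.00771). Snhg9 (-0.39), Rian (-0.33), Epb41l4aos (-0.32), Snhg10 (-0.08) and Snhg18 (0.13) did not pass with or without it. Snhg18 resembled Snhg6 in that its own snoRNA, Snord123, changed by -1.18 and the ratio of the 2 fell by 1.31 (limma adjusted p = 0.0149). Snhg11 and Meg3 were below 1 TPM in all libraries.

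Long noncoding RNAs that host no snoRNA had a median of -0.64 over 12 tested, with 1 (8.33%) lower and 0 higher. Of all genes tested, 4.25% were lower and 2.99% higher. The 1 lower was Mir17hg, the primary transcript of a microRNA cluster (-1.61 ± 0.32, limma adjusted p = 0.0466). Dnm3os was at -1.49 (0.0516) and Malat1, which is retained in nuclear speckles, at -0.70 (0.0874). The median of the 10 hosts was therefore near that of noncoding RNAs outside the snoRNA hosts.

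Protein-coding snoRNA hosts went both ways. Of 59 tested, 4 (6.78%) were lower and 3 higher, beside 4.25% lower and 2.99% higher of all genes tested. Of the 59, 25 had a negative log2 change, and the median was 0.21. Rps2, a protein of the small ribosomal subunit, rose (0.90 ± 0.11; limma adjusted p = 0.0342), and Eif4a2, a translation initiation helicase, fell (-0.85 ± 0.12; 0.0349). The mRNAs of cytosolic ribosomal proteins had 7 of 79 higher and 0 lower, a median of 0.29 and a lowest value of 0.07. Rps20 (0.64 ± 0.11; limma adjusted p = 0.04) was among those that rose. No ribosomal protein mRNA reached as low as any of the 9 hosts that had a negative change. Ribosomal protein genes have near-identical pseudogene copies, and how reads shared with them were counted was not examined.

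Genes for the proteins that package snoRNAs had a median change near 0. Of 17 snoRNP core and assembly genes tested, 1 (5.88%) was lower, beside 4.25% of all genes tested. None was higher, and the median was -0.01. The 1 lower was Nop56, a core protein of box C/D particles (-0.64 ± 0.12, limma adjusted p = 0.0425). Its partner Nop58 was at -0.40 (0.0647) and the H/ACA assembly factor Naf1 at 0.56 (0.0874); both passed with the block (limma adjusted p = 0.0328 and 0.0337). Of 19 genes of nonsense-mediated decay, 1 was higher, beside 2.99% of all genes tested. This was the pathway's central helicase Upf1 (0.82 ± 0.12, limma adjusted p = 0.0349). Upf1 was at 19.9 and 20.6 TPM in cell bodies and 36.3 and 36.2 TPM in protrusions. Of these 19 genes none was lower, and the median was 0.02. Decay of the hosts was not measured. Upf3a was at 0.58 (0.0524) and Upf3b at -0.50 (0.068), and both passed with the block (limma adjusted p = 0.0159 and 0.038).

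**Figure D4:**
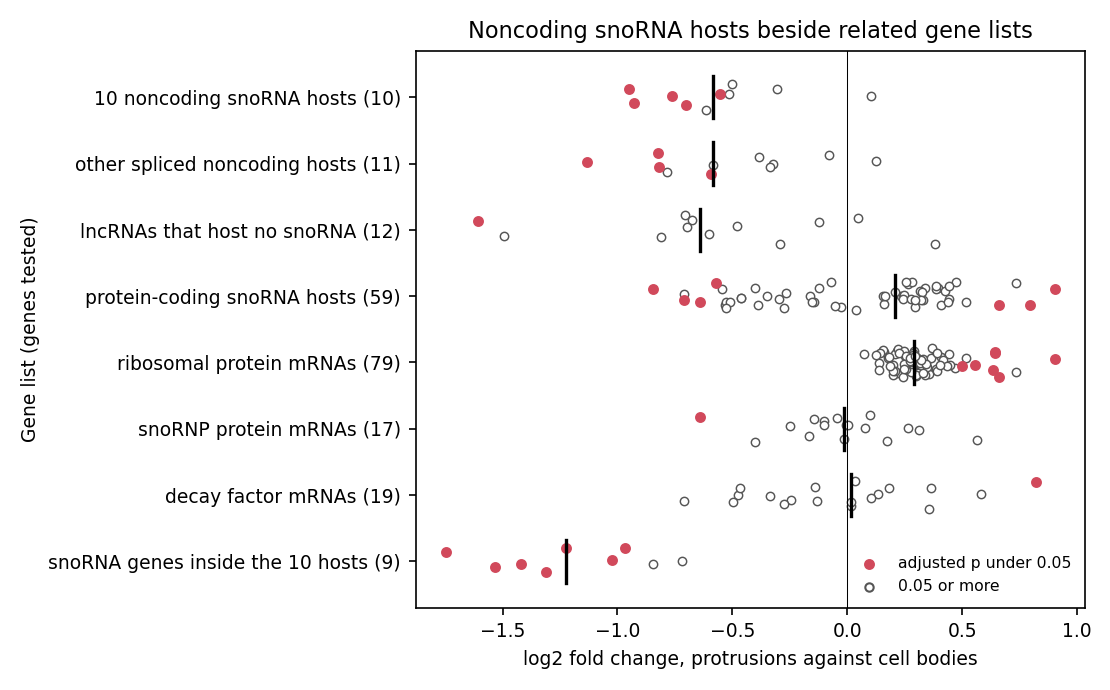
Log2 fold change in protrusions against cell bodies of each gene tested in 8 lists, 1 point per gene, with the median of each list as a vertical line and red points for an adjusted p under 0.05 (limma, no block). The 3 noncoding RNA lists have medians of -0.58, -0.59 and -0.64, the snoRNA genes inside the 10 hosts -1.22, and the protein-coding lists lie between -0.01 and 0.29.

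Among 7870 other genes with a mean of at least 10 TPM, the 5 whose centred log2 values over the 4 libraries lay nearest to those of Gas5 were Tmco1, Klra22, Cers5, Tvp23b and Gpx8, at Euclidean distances of 0.0285 to 0.0589. Tmco1 measured 40 and 39.9 TPM in cell bodies and 22.9 and 19.3 TPM in protrusions. Gpx8 measured 371 and 363 TPM in cell bodies and 218 and 183 TPM in protrusions, close to the level of Gas5. With 4 libraries this likeness rests on the split between fractions and a slight difference between the protrusion replicates.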

How the data were processed

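RNA-seq of 2 cell body and 2 protrusion libraries of YUMM1.7 cells was analysed from the deposited gene table. Its values are TPM: the authors aligned strand-specific reads to mm10 and normalised each library to the same total of 1000000. The aligner is TopHat in the methods and STAR, with featureCounts, in the submitters' processing notes. The columns of the authors' own comparison (log2 fold change, likelihood ratio score, p-value and FDR, from edgeR) were not used; their mean log2 CPM only set the scale of the recovered reads. TPM steps gave whole reads for 16537 of 16537 genes within 0.01 reads.

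TPM was tested as log2(TPM + 0.5) by limma 3.58.1 (R 4.3.3; prior variance fitted as a trend on the mean) for 11400 genes with a mean of at least 1 TPM, with Benjamini-Hochberg adjustment. Snhg4 had no GC content and entered no GC correction. Replicate numbers pair libraries from the same inserts, and the deviations of same-numbered libraries correlated at 0.447 over 11400 genes; the fit with the replicate block is an alternative. Without the block, p-values measure the spread between 2 libraries per fraction, combined with a prior variance drawn from all genes tested. The prior had 3.81 degrees of freedom against 2 from the libraries. With the block, the spread is that of the change between the 2 replicate numbers, with 10.2 prior degrees of freedom against 1. Alternatives changed the pseudocount, minimum, variance trend, centring, GC correction, block and libraries; voom on the recovered reads was added after the data were seen. The fits were tested on simulated data.

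The 10 hosts and the lists were chosen with earlier results of these data known. Named were all 10 hosts, each snoRNA gene inside them, the other noncoding hosts listed, the 3 genes with the smallest p of every other list and the 5 genes nearest to Gas5. The snoRNAs of Snhg3, Snhg5, Snhg15 and Snhg17 were not analysed here. A gene that this rule also names is not reported here.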

Additional observations from a re-analysis of the deposited data

How the results depend on the processing

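All 10 hosts kept their direction under each alternative run. The number called lower, 5 with no block, was 0 with no minimum on the mean TPM and with no trend in the prior variance, 3 with median centring, 2 with GC correction, 8 with voom and the replicate block, and 0 to 2 with a library left out; the other alternatives gave 4 to 7, and none called a host higher. Added to the fit on TPM, the replicate block changed the calls of Snhg3 and Snhg12 and of no other host; Snhg17 also passed where the block went with voom (adjusted p = 0.0114) or with GC correction (adjusted p = 0.0289). Among all genes, 485 were lower and 341 higher. These were 1513 and 921 with the replicate block, 0 and 0 with no minimum and with no trend, 1435 and 1226 with GC correction and the block, 889 and 775 with voom, 2052 and 1832 with voom and the block, and 0 to 144 and 0 to 14 with a library left out; with a minimum of 5 TPM 801 were lower. Of the 9 pairs of a snoRNA and a listed host, 0 passed; 1 did with the replicate block, 1 with a minimum of 5 TPM, 2 with GC correction and the block, and 0 to 2 with a library left out. Of all 104 pairs, 21 were lower and 1 higher; 36 were lower with a minimum of 5 TPM, and 0 to 46 with a library left out, while 2 were higher with the block, 2 with the minimum of 5 TPM, 0 with GC correction, 2 with GC correction and the block, and 0 to 4 with a library left out. The ratio of Snora16a to Snhg12, -0.10, ran from -0.79 to 0.58 with a library left out, 0.58 being without protrusions replicate 2. Relative to Gas5, 4 hosts rose, 2 with GC correction and 1 to 3 with a library left out. The cause of these shifts was not tested. With 2 libraries per fraction, leaving 1 out assumes that the lone library varies like the others. Snord87, Snora16a, Snora44 and Snord99 rest on 25 to 89 reads per library, which limits their ratios.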
